A study of Mus musculus with 15 samples.

Results

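The 5 genes that encode the subunits of the IL-12 family of cytokines, *Il12a*, *Il12b*, *Il23a*, *Il27* and *Ebi3*, were followed in bone marrow-derived macrophages (BMDMs) under 5 conditions. They were taken by name, and all 5 were found among the 51763 genes of the count table and were among the 16919 genes with enough counts to be tested. RNA was sequenced from 15 libraries, 3 for each condition, after 24 h of stimulation. The macrophages came from wild-type female C57BL/6NTac mice aged 8 to 10 weeks and were matured with M-CSF. Maturation took 10 days by the labels and 8 to 9 days by the study's methods. Macrophages of 5 mice were pooled before seeding. The 3 libraries of a condition are therefore technical replicates, and no SD, SE or p-value below includes variation among mice.

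The control cells received PBS. The second condition was 5 µg/mL of fully reduced HMGB1 (frHMGB1) and the third 5 µg/mL of disulfide HMGB1 (dsHMGB1), redox forms of a nuclear protein that signals danger when it leaves the cell. The fourth was 1 µg/mL of lipopolysaccharide (LPS), a bacterial ligand of TLR4. The fifth was LPS with 20 ng/mL of interferon gamma (LPS/IFNγ). For this last condition the treatment field of the labels gives 1 µg/mL of LPS, whereas their protocol text and the study's methods give 100 ng/mL. If the lower value is right, the addition of IFNγ and the lower LPS concentration cannot be told apart in the comparison of LPS/IFNγ with LPS. By the study's methods, frHMGB1 was made in buffers with DTT, a reducing agent. dsHMGB1 was a gift of another laboratory and was made without DTT. Redox form, source and buffer therefore cannot be told apart in the comparison of dsHMGB1 with frHMGB1.

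IL-12 family cytokines are pairs of a helical subunit and a subunit that resembles a soluble cytokine receptor. IL-12 is made of p35, encoded by *Il12a*, and p40, encoded by *Il12b*, and drives T and NK cells to make IFNγ. IL-23 joins the same p40 to p19, encoded by *Il23a*, and sustains T cells that make IL-17. IL-27 joins p28, encoded by *Il27*, to EBI3, encoded by *Ebi3*, and both promotes early type 1 responses and restrains inflammation. IL-35 is described as p35 with EBI3. Macrophages and dendritic cells stimulated through Toll-like receptors are major sources of IL-12, IL-23 and IL-27. Only transcripts were measured here, so no value below is a level of a subunit protein or of a heterodimer.

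The genes lie on 5 different chromosomes of GRCm38 and share no neighbourhood. In the GENCODE M21 annotation, *Il12a* (ENSMUSG00000027776) is at chr3:68690644-68698547 on the plus strand, with 8 exons in its longest transcript, and *Il12b* (ENSMUSG00000004296) at chr11:44400063-44414033 on the plus strand, also with 8 exons. *Il23a* (ENSMUSG00000025383) is at chr10:128296139-128298752 on the minus strand, with 3 exons, and *Il27* (ENSMUSG00000044701) at chr7:126589010-126594941 on the minus strand, with 5 exons. *Ebi3* (ENSMUSG00000003206) is at chr17:55952640-55957022 on the plus strand, with 5 exons. *Il27* shares 103 bases with *Apobr*, and *Ebi3* shares 2252 bases with the antisense RNA gene *Gm16712*, in both cases on opposite strands. Whether reads were counted by strand is not given in the sources used here, so reads of these overlapping stretches could have been credited to either gene. *Gm16712* itself stood at 36.3 ± 8.26 normalized counts in PBS and at 323 ± 54.5 in LPS (SD, n = 3), far under *Ebi3*. *Apobr* went from 5127 ± 968 in PBS to 9850 ± 413 in LPS/IFNγ, while *Il27* went from 20.9 ± 12.4 to 99933 ± 3517.

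Promoter sequences are shown for the members that matched RefSeq's promoter table for GRCm38.p6, because transcription factors of the macrophage response bind such regions and because the transcripts of these genes differed in their response. The symbols of 3 of the 5 genes matched, with separate start sites for *Il12a*. Each run below is the 250 bases before an annotated start, 5′ to 3′ on the plus strand, in lower case. Capitals mark matches, on either strand, to any of 8 short motifs: the full κB site GGGNNNNNCC, the short κB motif GGGAA, the AP-1 site TGANTCA, the interferon regulatory factor pair GAAANNGAAA, the STAT site TTCNNNGAA, the PU.1 core GAGGAA, the C/EBP site TTGCNNAA and the TATA box TATANAA. The windows are chr3:68690394-68690643 and chr3:68691174-68691423 for the starts of *Il12a*, chr11:44399813-44400062 for *Il12b* and chr17:55952373-55952622 for *Ebi3*.
Il12a, upstream start: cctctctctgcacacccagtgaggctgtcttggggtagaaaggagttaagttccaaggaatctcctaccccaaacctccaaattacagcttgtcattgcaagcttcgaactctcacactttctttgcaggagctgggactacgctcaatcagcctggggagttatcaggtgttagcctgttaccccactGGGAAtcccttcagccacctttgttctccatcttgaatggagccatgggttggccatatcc
Il12a, downstream start: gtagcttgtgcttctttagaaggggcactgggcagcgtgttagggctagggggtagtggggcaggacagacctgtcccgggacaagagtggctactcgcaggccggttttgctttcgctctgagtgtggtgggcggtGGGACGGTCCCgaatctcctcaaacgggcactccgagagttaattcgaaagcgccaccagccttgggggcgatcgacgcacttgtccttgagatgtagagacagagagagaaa
Il12b: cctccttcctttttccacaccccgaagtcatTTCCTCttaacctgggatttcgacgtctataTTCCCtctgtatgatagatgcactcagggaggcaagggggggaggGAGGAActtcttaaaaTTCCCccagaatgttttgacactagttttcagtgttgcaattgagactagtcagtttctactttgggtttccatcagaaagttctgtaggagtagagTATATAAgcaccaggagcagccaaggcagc
Ebi3: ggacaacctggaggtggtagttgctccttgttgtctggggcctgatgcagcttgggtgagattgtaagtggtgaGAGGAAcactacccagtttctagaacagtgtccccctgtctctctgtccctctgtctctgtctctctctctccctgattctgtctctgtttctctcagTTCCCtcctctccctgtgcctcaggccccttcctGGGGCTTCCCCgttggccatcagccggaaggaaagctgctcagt

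The *Il12b* window held a TATA box at 30 to 24 bases before the start, short κB motifs ending 184 and 123 bases before it, and PU.1 cores at 219 to 214 and 143 to 138 bases. The *Ebi3* window held overlapping matches to the full κB site between 44 and 34 bases before the start, with a short κB motif inside them, another such match at 78 to 74 bases and a PU.1 core at 176 to 171 bases. At *Il12a*, the upstream start had a short κB motif at 61 to 57 bases, and the downstream start had overlapping full κB sites between 113 and 103 bases. These letters are common. Of 32851 mouse promoter windows of this length, 45.8% held the full κB motif, 56.2% the short κB motif, 23.3% the PU.1 core and 10.4% the TATA box. The AP-1, interferon regulatory factor pair, STAT and C/EBP letters, which 6.75%, 2.98%, 7.02% and 9.56% of all windows held, were not in these windows. A match is a run of letters and not a measured binding site, and a site whose letters differ from these motifs would not be marked.

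The libraries held between 40934540 and 80925478 counts. PBS replicate 3 stood apart, with a correlation of log2 CPM across genes of 0.934 and 0.939 with the other PBS libraries, against 0.987 to 0.993 for every other pair of replicates. Its chi-square per degree of freedom over genes was 692 and 763 with the other PBS libraries. For dsHMGB1 replicate 1 it was 86.6 and 48.6 with replicates 2 and 3, and 22.9 between those. The remaining pairs had 4.31 to 10.05. dsHMGB1 replicate 1 was highest of its group for *Il12a*, *Il23a* and *Il27* and lowest for *Il12b*. In frHMGB1 against PBS, leaving out PBS replicate 3 brought the share of genes called higher from 1.31% to 8.41% and that of genes called lower from 5.69% to 9.09%. No call of a subunit gene against PBS changed without it, and values without it are given below for *Il27* and *Ebi3*, the members with counts in all PBS libraries. The BMDM label was checked against 8 macrophage genes, among them *Adgre1*, *Csf1r* and *Cd68*, all of which passed the filter, and their summed level ran from 986036 to 1255416 normalized counts over the 15 libraries. The evenness of this sum depends on the scaling. In CPM it ran from 13520 to 13865 in LPS/IFNγ, the lowest group, and from 27010 to 27281 in frHMGB1, the highest. *Lyz2* made up most of the sum of normalized counts, with means from 681088 in LPS/IFNγ to 900300 in frHMGB1. Single markers were less steady. *Mertk* went from a mean of 3566 in PBS to 29154 in LPS/IFNγ, and *Cd14* from 11214 in PBS to 96134 in LPS. *Adgre1* went from 39938 in PBS to 101697 in dsHMGB1, and *Csf1r* was at 143614 in dsHMGB1 and 89460 in LPS. In bulk RNA, fewer cells that make a transcript and less of it in each cell cannot be told apart.

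In resting macrophages *Ebi3* was the only subunit gene with more than a trace of transcript. *Il12a* had 0 counts in each of the 3 PBS libraries, and so had *Il23a*. A count of 0 over the PBS libraries allows a level of up to 0.753 normalized counts, taken as 3 counts over the group; this limit and the intervals below cover counting error only. *Il12b* had 5 counts in PBS replicate 1 and 0 in replicates 2 and 3. *Il27* had 14.9, 12.6 and 35.2 normalized counts in PBS replicates 1, 2 and 3, with replicate 3 highest. *Ebi3* had 858, 778 and 1158 normalized counts, again with replicate 3 highest. Per kb of exon, *Ebi3* made up 97.5% of the summed level of the 5 transcripts in PBS.

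**Figure D1:**
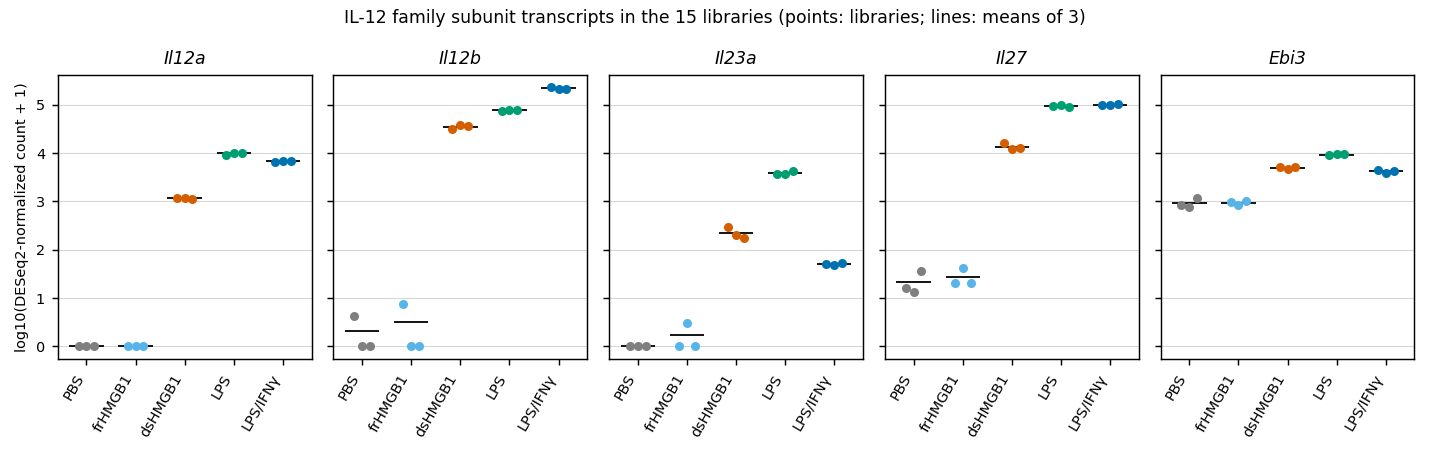
Each panel plots 1 subunit gene, with the 5 conditions on the horizontal axis and log10(DESeq2-normalized count + 1) on the vertical axis; points are single libraries and lines are means of 3 libraries. *Il12a*, *Il12b*, *Il23a* and *Il27* lie near the bottom in PBS and frHMGB1, and *Il23a* drops in LPS/IFNγ to a mean of 50.4, under its dsHMGB1 mean of 223 and its LPS mean of 3901.

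frHMGB1 was compared with PBS to ask whether the reduced protein acts on these genes. None of the 5 was called higher and none lower by edgeR's quasi-likelihood test (adjusted p under 0.05), where 1.31% of all tested genes were higher and 5.69% lower. The count was also 0 at an unadjusted p under 0.05 and 0 with DESeq2's test. *Il12a* stayed at 0 counts in all 3 frHMGB1 libraries, *Il23a* had 2 counts in replicate 2 and 0 in the others, and *Il12b* had 6 counts in replicate 1 and 0 in the others. *Il27* had 19.2, 40.9 and 19.4 normalized counts and *Ebi3* 954, 853 and 1020, and for both genes the libraries overlapped those of PBS. The log2 fold change of *Ebi3* was 0.02 with a 95% interval of -0.26 to 0.30 (DESeq2), and that of *Il27* was 0.46 with an interval of -0.19 to 1.10, so changes within these bounds were not excluded. Without PBS replicate 3, edgeR's log2 fold change of *Il27* went from 0.48 to 0.95 (adjusted p = 0.069) and that of *Ebi3* from 0.04 to 0.20 (adjusted p = 0.11).

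dsHMGB1 raised all 5 transcripts above PBS, where 23.3% of all tested genes were higher and 24.2% lower. LPS did so too (26.7% of genes higher, 36.2% lower), and so did LPS/IFNγ (29.0% higher, 31.2% lower). These comparisons share the PBS libraries. The median log2 fold change of the 5 genes was 10.60 in dsHMGB1, 14.73 in LPS and 12.33 with LPS/IFNγ, against -0.10, -0.21 and -0.13 over all tested genes, and it rests on fitted values of genes at or near 0 in PBS. dsHMGB1 was also set against frHMGB1, the same protein in the other redox form and, as described above, from another preparation. All 5 genes were again called higher, where 27.7% of all genes were higher and 23.1% lower.

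*Il12a*, the p35 subunit of IL-12, had 1184, 1163 and 1134 normalized counts in dsHMGB1 replicates 1, 2 and 3. In LPS it had 9219, 10175 and 10095, and in LPS/IFNγ 6582, 6854 and 7021. No library of one stimulation overlapped those of another, and all lay above the PBS libraries at 0. Against the limit of 3 counts over the PBS group, *Il12a* was at least 1541-fold higher in dsHMGB1, at least 13016-fold in LPS and at least 9070-fold in LPS/IFNγ (edgeR adjusted p of 5.16e-11, 6.77e-12 and 7.38e-12). The limits depend on the depth of the PBS libraries and would be 943-fold, 7964-fold and 5549-fold without PBS replicate 1 and 928-fold, 7837-fold and 5461-fold without replicate 2. Against frHMGB1, dsHMGB1 was at least 1098-fold higher, or at least 720-fold without frHMGB1 replicate 2.

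*Il12b*, the p40 subunit that IL-12 and IL-23 share, had 32201, 37678 and 35937 normalized counts in dsHMGB1. It had 73655, 79751 and 78206 in LPS and 228523, 211733 and 216275 in LPS/IFNγ. The groups stood in 3 separate steps, with LPS/IFNγ on top. The ratio of summed counts to the 5 counts in PBS was 28240 in dsHMGB1, with a 95% counting interval of 12101 to 86974. In LPS this ratio was 61383, with an interval of 26303 to 189050, and in LPS/IFNγ it was 174265, with an interval of 74674 to 536701. The adjusted p-values (edgeR) were 2.15e-10, 6.97e-11 and 3.42e-11. All 5 counts came from PBS replicate 1. Without it the values are lower limits of 28796-fold, 62594-fold and 177701-fold, and without PBS replicate 2 the ratios were 17003, 36960 and 104927. Against the 6 counts of frHMGB1, the ratio in dsHMGB1 was 16778 (interval 7708 to 45721), which was 11000 without frHMGB1 replicate 2 and at least 22510-fold without replicate 1.

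*Il23a*, the p19 subunit of IL-23, had the same order of means as *Ebi3*, falling from LPS through dsHMGB1 to LPS/IFNγ, but over a much wider range. It had 292, 202 and 175 normalized counts in dsHMGB1 and 3726, 3719 and 4259 in LPS. In LPS/IFNγ it had 50.9, 48.4 and 52.1. The LPS/IFNγ libraries thus lay under every dsHMGB1 library and far under every LPS library, while all lay above PBS. The lower limits against PBS were 293-fold in dsHMGB1, 5172-fold in LPS and 67.1-fold in LPS/IFNγ (edgeR adjusted p of 1.68e-08, 2.99e-10 and 2.84e-07). Without PBS replicate 1 they were 179-fold, 3164-fold and 41.1-fold, and without replicate 2 they were 177-fold, 3114-fold and 40.4-fold. Against the 2 counts of frHMGB1, the ratio in dsHMGB1 was 314 with a wide counting interval of 86.5 to 2594, and it was at least 137-fold without frHMGB1 replicate 2.

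*Il27*, the p28 subunit of IL-27, had 16203, 12107 and 12826 normalized counts in dsHMGB1. It reached 93141, 97063 and 90826 in LPS and 97208, 98688 and 103903 in LPS/IFNγ. The dsHMGB1 libraries lay far under both other stimulations, which stood close together without overlapping. The log2 fold change against PBS was 9.46 ± 0.29 in dsHMGB1, 12.24 ± 0.29 in LPS and 12.33 ± 0.29 with LPS/IFNγ (SE), with edgeR adjusted p of 1.38e-10, 1.65e-11 and 1.31e-11. With PBS replicate 3 left out, edgeR's log2 fold changes went from 9.45 to 9.92, from 12.17 to 12.67 and from 12.30 to 12.75. Against frHMGB1, dsHMGB1 was higher by 9.01 ± 0.28 on the log2 scale (adjusted p = 2.15e-10, edgeR).

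*Ebi3*, the receptor-like subunit of IL-27, had the smallest fold change and the highest level in PBS. It had 5042, 4722 and 5246 normalized counts in dsHMGB1, 8960, 9381 and 9568 in LPS, and 4546, 3947 and 4228 in LPS/IFNγ. LPS libraries were above all others, and the dsHMGB1 libraries lay just above those of LPS/IFNγ. The log2 fold change against PBS was 2.43 ± 0.14 in dsHMGB1, 3.32 ± 0.14 in LPS and 2.19 ± 0.14 with LPS/IFNγ (SE), with edgeR adjusted p of 2.07e-09, 8.41e-11 and 3.18e-09. With PBS replicate 3 left out, edgeR's log2 fold changes went from 2.43 to 2.58, from 3.27 to 3.45 and from 2.17 to 2.30. Against frHMGB1, dsHMGB1 was higher by 2.41 ± 0.14 (adjusted p = 2.68e-09, edgeR).

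The stimulations were then compared with each other, which asks how the response to dsHMGB1 differs from those to LPS and LPS/IFNγ; the comparisons share libraries. All 5 transcripts were lower in dsHMGB1 than in LPS and none was higher, where 10.6% of all tested genes were lower and 15.8% higher. *Il23a* was 17.6-fold lower (log2 fold change -4.13 ± 0.21, adjusted p = 7.04e-07), *Il12a* 8.45-fold lower (-3.08 ± 0.09, adjusted p = 5.88e-08) and *Il27* 6.89-fold lower (-2.77 ± 0.23, adjusted p = 6.07e-06). *Il12b* was 2.17-fold lower (-1.13 ± 0.10, adjusted p = 0.0188) and *Ebi3* 1.86-fold lower (-0.89 ± 0.14, adjusted p = 0.00015). The call of *Il12b* was not firm although no libraries overlapped. Its adjusted p was 0.0652, 0.0526 and 0.0663 without dsHMGB1 replicate 1, 2 or 3, 0.0544 and 0.0521 without LPS replicate 2 or 3, and 0.0699 with total counts as library sizes. Over all 23 alternatives it ran from 6.74e-27 to 0.0699, and 17 of them called it.

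Against LPS/IFNγ, dsHMGB1 had less *Il12a*, *Il12b* and *Il27* and more *Il23a*. That made 3 of 5 genes lower and 1 higher, where 16.7% of all tested genes were lower and 16.5% higher. *Il27* was 7.37-fold lower (log2 fold change -2.87 ± 0.23, adjusted p = 1.81e-06), *Il12b* 6.17-fold lower (-2.63 ± 0.10, adjusted p = 2.85e-05) and *Il12a* 5.89-fold lower (-2.56 ± 0.09, adjusted p = 5.93e-08). *Il23a* was 4.37-fold higher (2.14 ± 0.24, adjusted p = 4.34e-05), with every dsHMGB1 library above every LPS/IFNγ library. *Ebi3* differed by 0.24 on the log2 scale with a 95% interval of -0.04 to 0.51 (adjusted p = 0.115, edgeR). It was called higher in dsHMGB1 in 3 of 23 alternatives. These were without PBS replicate 3 (adjusted p = 0.00225), with the 2 conditions fitted alone (0.0142) and with total counts as library sizes (0.000654), and each made 2 genes higher in place of 1.

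**Figure D2:**
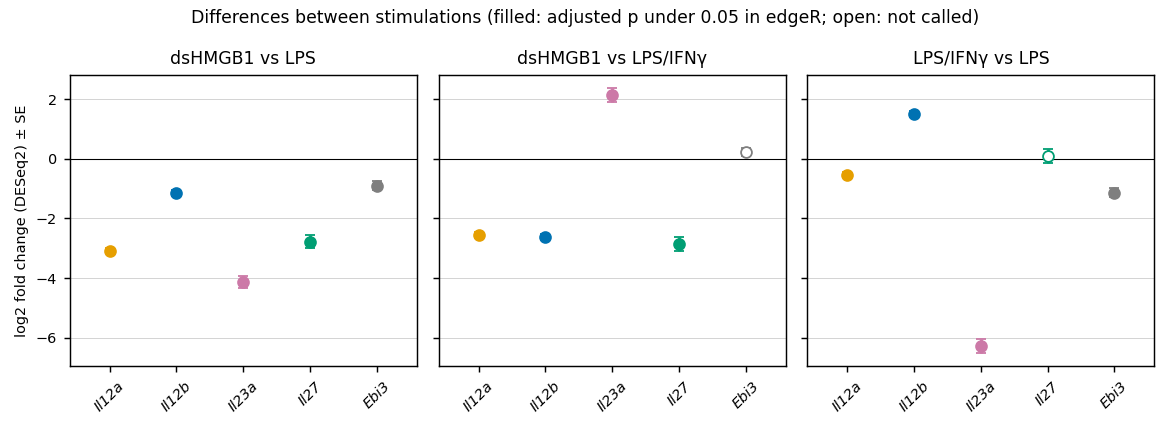
Log2 fold changes from DESeq2 with their SE are plotted for the 5 genes in 3 comparisons between stimulations, filled where edgeR's adjusted p was under 0.05 and open where it was not. In LPS/IFNγ against LPS, *Il12b* stands at 1.503 and *Il23a* at -6.27, and *Il27* is open near 0.

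LPS/IFNγ was compared with LPS to see what the presence of IFNγ goes with. The subunits that IL-12 and IL-23 do and do not share moved in opposite directions. *Il12b* rose 2.84-fold (log2 fold change 1.503 ± 0.101, adjusted p = 0.00223), while *Il23a* fell 77.1-fold (-6.27 ± 0.24, adjusted p = 4.53e-08). *Ebi3* fell 2.19-fold (-1.13 ± 0.14, adjusted p = 1.47e-05) and *Il12a* fell 1.44-fold (-0.53 ± 0.08, adjusted p = 0.00322). So 1 of 5 genes was higher and 3 lower, where 16.3% of all tested genes were higher and 9.36% lower. *Il27* differed by 0.09 on the log2 scale with a 95% interval of -0.36 to 0.55 (adjusted p = 0.756, edgeR). Its libraries did not overlap, and it was called higher, as the second gene, in 1 of 23 alternatives, the fit of these 2 conditions alone (adjusted p = 0.0261).

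Set in order, the levels of *Il12a* ran from LPS through LPS/IFNγ and dsHMGB1 to PBS and frHMGB1. Those of *Il12b* ran from LPS/IFNγ through LPS and dsHMGB1 to frHMGB1 and PBS. For both genes each step was called down to the levels in PBS and frHMGB1. The call of the *Il12b* step from LPS to dsHMGB1 was not firm, as described above, although no libraries overlapped. *Il23a* ran from LPS through dsHMGB1 and LPS/IFNγ to frHMGB1 and PBS, with each step but the last called. *Il27* ran from LPS/IFNγ and LPS, which were not told apart, through dsHMGB1 to frHMGB1 and PBS. *Ebi3* ran from LPS through dsHMGB1 and LPS/IFNγ, which were not told apart, to frHMGB1 and PBS. The pair of PBS and frHMGB1 was not told apart for any of the 5 genes.

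Levels of different genes can be set side by side only per length, here as normalized counts per kb of the union of a gene's exons. In LPS/IFNγ, *Il12b* stood at 111258 ± 4415 per kb and *Il27* at 97877 ± 3445, ranks 22 and 29 among 21649 protein-coding genes. In LPS, *Il27* stood at 91750 ± 3088 (rank 34) and *Il12b* at 39249 ± 1611 (rank 78). In dsHMGB1 the order was that of LPS/IFNγ again, with *Il12b* at 17932 ± 1423 (rank 131) ahead of *Il27* at 13430 ± 2142 (rank 173). *Il12a* did not pass 5779 ± 312 per kb in any condition, and *Il23a* not 1736 ± 138, both in LPS (SD, n = 3 for all).

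**Figure D3:**
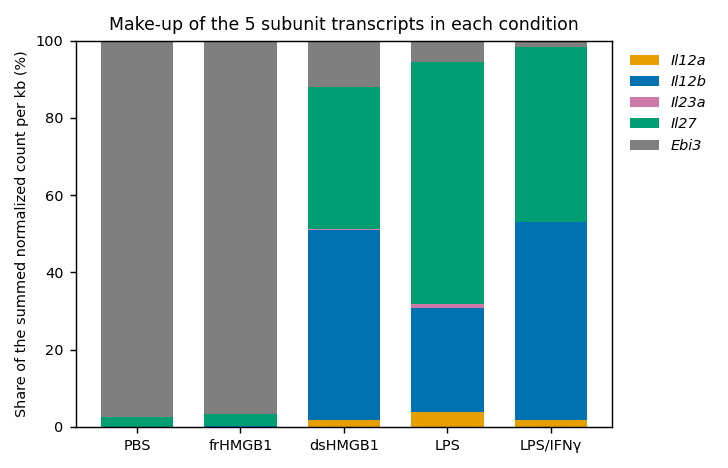
Stacked bars give the share of each gene, in percent, in the summed normalized count per kb of the 5 subunit transcripts, from the mean of 3 libraries in each condition. *Ebi3* fills 97.5% of the bar in PBS and 1.69% in LPS/IFNγ, where *Il12b* (51.3%) and *Il27* (45.1%) fill nearly all of it.

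The make-up of the family therefore differed between conditions. *Ebi3* fell from 97.5% of the summed level in PBS and 96.8% in frHMGB1 to 11.9% in dsHMGB1, 5.50% in LPS and 1.69% with LPS/IFNγ. *Il12b* held 49.2% in dsHMGB1, 26.8% in LPS and 51.3% with LPS/IFNγ. *Il27* held 36.8%, 62.6% and 45.1% in the same order. *Il12a* did not pass 3.94%, in LPS, and *Il23a* not 1.18%, also in LPS.

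Because the cytokines are pairs, the ratio of 2 partner transcripts was taken within each library, as counts per kb, which removes library size from the value. Where both partners had more than 3 counts in every library of a condition, the conditions were compared by a two-sided exact permutation test. With 3 libraries against 3 this exact permutation test cannot go below p = 0.1. Of the 22 comparisons made, 20 had no overlap between libraries and reached that smallest p, which is 0.11 after Benjamini-Hochberg adjustment over the 22, so none passed 0.05.

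For IL-12, *Il12b* exceeded *Il12a* in dsHMGB1, LPS and LPS/IFNγ. The ratio was 23.5, 28.0 and 27.4 in the dsHMGB1 libraries, 6.91, 6.78 and 6.70 in those of LPS, and 30.0, 26.7 and 26.6 in those of LPS/IFNγ. LPS had the smallest excess of p40 transcript, and the libraries of dsHMGB1 and LPS/IFNγ overlapped. The mean log2 ratio was 4.71 ± 0.14 in dsHMGB1 and 4.79 ± 0.10 in LPS/IFNγ (SD, n = 3; exact permutation p = 0.6), against 2.76 ± 0.02 in LPS. The dsHMGB1 ratio was 3.86 times that of LPS (exact permutation p = 0.1).

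For IL-23, the p40 transcript was in excess over p19 by very different amounts. The ratio of *Il12b* to *Il23a* was 126, 213 and 235 in dsHMGB1, 22.6, 24.5 and 20.98 in LPS, and 5131, 4998 and 4744 in LPS/IFNγ. LPS was lowest, and the LPS/IFNγ libraries stood far above the rest. The mean ratio in LPS/IFNγ was 219 times that in LPS and 26.8 times that in dsHMGB1, and that in dsHMGB1 was 8.16 times that in LPS (exact permutation p = 0.1 for each).

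For IL-27, the partner in excess changed. *Ebi3* outnumbered *Il27* by 51.0, 54.5 and 29.1 to 1 in the PBS libraries and 43.8, 18.4 and 46.5 to 1 in those of frHMGB1, and these overlapped (exact permutation p = 0.5). In dsHMGB1 *Il27* outnumbered *Ebi3* by 3.63, 2.90 and 2.76 to 1. In LPS the ratio was 11.7, 11.7 and 10.7, and in LPS/IFNγ it was 24.2, 28.3 and 27.8. These stimulations thus each had their own range, in rising order from dsHMGB1 to LPS to LPS/IFNγ. Between LPS and LPS/IFNγ the ratio differed 2.34-fold, with *Il27* not called different and *Ebi3* lower (exact permutation p = 0.1).

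**Figure D4:**
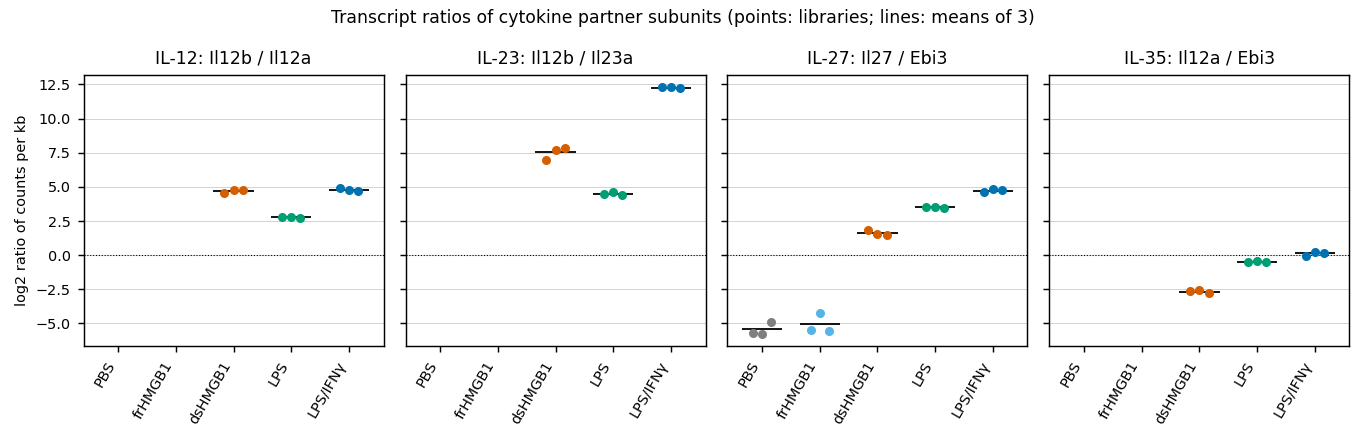
Log2 ratios of counts per kb of partner subunits are plotted for each library, with lines at the means of 3 and a dotted line where both partners are equal; conditions with 3 counts or fewer of a partner in any library have no points. The ratio of *Il27* to *Ebi3* lies under the dotted line in PBS and frHMGB1 and above it in dsHMGB1, LPS and LPS/IFNγ. That of *Il12b* to *Il23a* is highest in LPS/IFNγ at a mean of 12.27.

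The remaining pairs share EBI3. The ratio of *Il12a* to *Ebi3*, the IL-35 pair, was 0.159, 0.167 and 0.147 in dsHMGB1, 0.698, 0.736 and 0.716 in LPS, and 0.982, 1.18 and 1.13 in LPS/IFNγ. The transcripts were thus near equal in LPS/IFNγ. *Ebi3* stood to *Il12b* at 0.267, 0.214 and 0.249 in dsHMGB1, at 0.207, 0.201 and 0.209 in LPS, and at 0.0339, 0.0318 and 0.0333 in LPS/IFNγ. Ratios to *Il12a* and *Il23a* depend on the length used for them: with the longest annotated transcript in place of the union of exons, the mean log2 ratio of *Il12a* to *Ebi3* was -0.10 in place of -0.48 in LPS and 0.51 in place of 0.13 in LPS/IFNγ.

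The receptors and signal transducers of the family were followed as a list of 11 genes, of which 10 were tested. None was called in frHMGB1, where 1.31% of all tested genes were higher than in PBS and 5.69% lower. Compared with PBS, dsHMGB1 had 7 higher and 1 lower (median log2 fold change 1.46, beside -0.10 over all tested genes), LPS 6 and 1 (1.71, beside -0.21), and LPS/IFNγ 8 and 0 (2.44, beside -0.13). In these 3 comparisons, 23.3%, 26.7% and 29.0% of all tested genes were higher and 24.2%, 36.2% and 31.2% lower. LPS/IFNγ differed from LPS in 3 of the 10, all higher, where 16.3% of all tested genes were higher and 9.36% lower. *Il12rb1*, the receptor chain common to IL-12 and IL-23, had 17.5 ± 4.53 normalized counts in PBS, 59.3 ± 13.0 in dsHMGB1, 46.9 ± 14.9 in LPS and 235 ± 13.9 with LPS/IFNγ. *Il12rb2*, the second IL-12 receptor chain, had 463, 406 and 14.1 in PBS replicates 1, 2 and 3 and 1777 ± 17.3 in LPS/IFNγ, where it was called higher than in PBS with replicate 3 (edgeR log2 fold change 2.52, adjusted p = 0.00769) and without it (1.96, adjusted p = 1.35e-06). *Il23r* was too low to test, with a highest mean of 13.9 ± 6.31 in LPS/IFNγ. *Il27ra*, the IL-27 receptor chain, ranged from 319 ± 28.2 in LPS/IFNγ to 487 ± 14.2 in frHMGB1 and was called higher in dsHMGB1 than in PBS, by 0.35 ± 0.11 on the log2 scale (adjusted p = 0.0395, and 0.053 without PBS replicate 3). *Il6st*, its gp130 partner, had 13962, 14419 and 5147 in the PBS replicates and 5494 ± 278 in LPS, where it was lower (log2 fold change -1.02 ± 0.29, adjusted p = 0.00498). Without PBS replicate 3 it was also lower in LPS/IFNγ (edgeR log2 fold change -0.75, adjusted p = 9.14e-07) and in frHMGB1 (-0.30, adjusted p = 0.0348). The counts without that library, chosen after seeing the data, were 1 higher and 1 lower in frHMGB1, 6 and 1 in dsHMGB1, 7 and 1 in LPS, and 8 and 2 in LPS/IFNγ. In the same order, 8.41%, 29.8%, 32.9% and 33.3% of all tested genes were then higher and 9.09%, 29.0%, 38.3% and 34.4% lower. Among the transducers, *Jak2* rose most against PBS, by 4.03 ± 0.17 in dsHMGB1, 4.98 ± 0.17 in LPS and 5.04 ± 0.17 with LPS/IFNγ on the log2 scale (SE; SD for levels, n = 3).

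A list of 11 factors known to activate subunit genes contains NF-κB proteins, interferon regulatory factors and macrophage factors. Compared with PBS, dsHMGB1 had 10 of 11 higher and none lower (median log2 fold change 1.93), LPS 10 and 1 (2.88), and LPS/IFNγ 9 and 1 (4.21), the lower gene being *Runx1* in both. Over all tested genes, 23.3%, 26.7% and 29.0% were higher and 24.2%, 36.2% and 31.2% lower, with medians of -0.10, -0.21 and -0.13. Without PBS replicate 3 the counts were 10 and 1, 10 and 1, and 10 and 1. The shares of all tested genes were then 29.8%, 32.9% and 33.3% higher and 29.0%, 38.3% and 34.4% lower. *Irf1*, which acts on *Il12a* and *Il27*, went from 4684 ± 1019 normalized counts in PBS to 91227 ± 7750 in dsHMGB1, 116436 ± 1684 in LPS and 140598 ± 2413 with LPS/IFNγ. *Irf8*, which acts on *Il12b*, had 13816 ± 575, 26850 ± 1007, 101486 ± 4940 and 426568 ± 11422 in the same order. *Rel*, the c-Rel subunit of NF-κB that acts on *Il12b* and *Il23a*, had 1774 ± 748, 13248 ± 2392, 20402 ± 1182 and 32800 ± 557. Between LPS/IFNγ and LPS only *Irf8* of the 11 was called higher (log2 fold change 2.07 ± 0.06, adjusted p = 2.58e-09), and *Nfkbiz*, *Batf* and *Cebpb* were called lower by 0.77 to 1.43 in log2 size. In that comparison 16.3% of all tested genes were higher and 9.36% lower. *Rel* differed by 0.69 ± 0.26 (adjusted p = 0.0592, edgeR).

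Of 5 factors known to limit the family, dsHMGB1 had 3 above PBS and none below (median log2 fold change 1.83), LPS 4 above and 1, *Bcl6*, below (3.64), and LPS/IFNγ all 5 above (2.55). The shares and medians over all tested genes are those given for the activating factors, and without PBS replicate 3 *Bcl6* was also lower in dsHMGB1. Set against LPS, dsHMGB1 had 4 of these 5 lower and none higher (median -1.30), and 4 of the 11 activating factors lower and 1, *Runx1*, higher (median -0.61), where 10.6% of all tested genes were lower and 15.8% higher with a median of 0.02. *Il10*, a cytokine that shuts down *Il12b* in macrophages, had 27.5 ± 13.6 normalized counts in PBS, 175 ± 39.8 in dsHMGB1, 2199 ± 299 in LPS and 361 ± 81.4 with LPS/IFNγ, and *Nfil3*, a repressor of *Il12b*, had 528 ± 82.4, 1867 ± 141, 6690 ± 86.7 and 3074 ± 29.8. Both were lower in LPS/IFNγ than in LPS, by 2.61 ± 0.28 and 1.12 ± 0.10 on the log2 scale (adjusted p of 1.99e-05 and 2.93e-06, edgeR). *Bcl6* was higher there by 1.60 ± 0.15 (adjusted p = 6.33e-06, edgeR). In frHMGB1, *Bcl3* was the one gene of this list called higher than in PBS (0.43 ± 0.12, adjusted p = 0.0145, edgeR), and *Nfkbiz* the one among the activators (1.36 ± 0.22, adjusted p = 0.00197). Without PBS replicate 3, 6 of the 11 activating factors were called higher in frHMGB1 in place of 1, namely *Nfkbiz*, *Nfkb1*, *Irf1*, *Irf5*, *Spi1* and *Cebpb*, and the 5 added had edgeR log2 fold changes of 0.17 to 0.64. Leaving that library out also brought the share of all tested genes called higher in frHMGB1 from 1.31% to 8.41%.

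**Figure D5:**
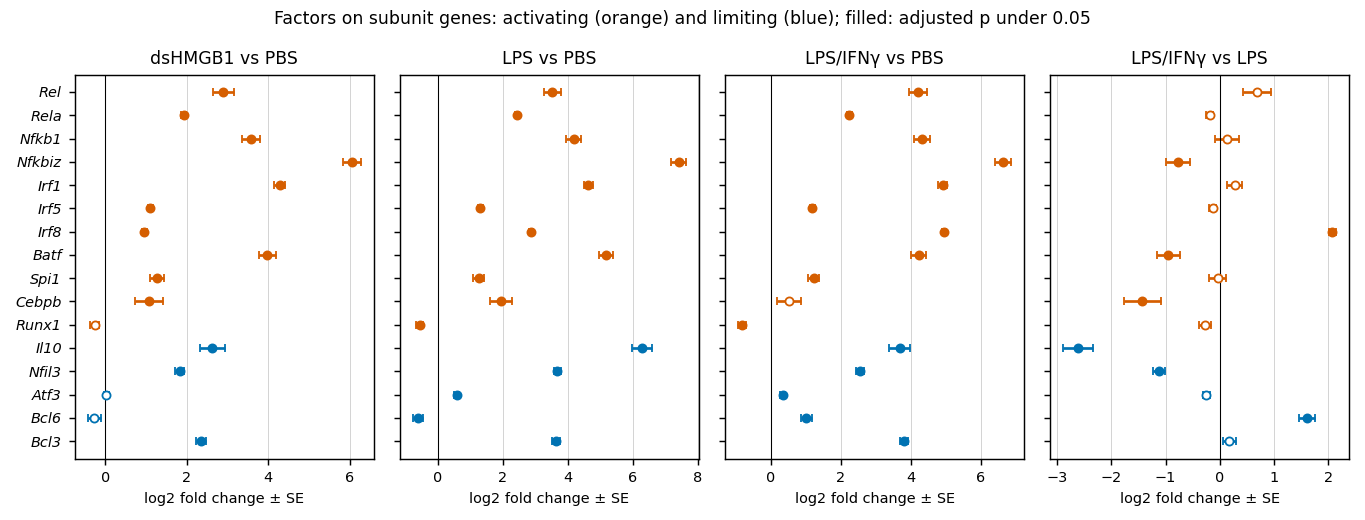
Log2 fold changes from DESeq2 with their SE are plotted for 11 activating factors (orange) and 5 limiting factors (blue) in 4 comparisons, filled where edgeR's adjusted p was under 0.05. In LPS/IFNγ against LPS, *Irf8* at 2.07 is the one filled orange point to the right of 0, and *Il10* at -2.61 lies farthest to the left.

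For each member, the 3 genes most like it were sought among 10097 protein-coding genes whose mean reached 100 normalized counts, by Pearson's r of log2(normalized count + 1) over the 15 libraries. The libraries fall into 5 conditions, so r mostly compares condition means, and it is given as a description. *Il12a* was most like *Pim1*, a survival kinase (0.999), *Gnb1*, a G protein subunit (0.999), and *Mafk*, a small Maf protein (0.999). *Il12b* was most like *Socs1*, an inhibitor of JAK kinases (0.998), *AW011738* (0.998) and *Cds1*, a lipid synthesis enzyme (0.997). *Il23a* was most like *Igsf8* (0.989), *Tnfrsf8*, which encodes CD30 (0.989), and *Zfp36*, the mRNA decay factor tristetraprolin (0.988). *Il27* was most like *Tap1*, a peptide transporter for MHC class I (0.998), *Pim1* (0.998) and *March5*, a ubiquitin ligase (0.998), and *Ebi3* most like the chemokine *Ccl3* (0.997), *Spryd7* (0.994) and *H2-M3* (0.994). *Zfp36* had 21634 ± 1413 normalized counts in dsHMGB1, 46272 ± 512 in LPS and 14087 ± 201 with LPS/IFNγ, and *Socs1* had 7693 ± 1441, 11849 ± 356 and 20727 ± 702. By Spearman's rho only *Pim1*, for *Il12a*, was again among the top 3 of its member.

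Markers of other cells that make or answer these cytokines were summed. Of 8 dendritic cell genes, 5 passed the filter, and their sum moved with the stimulations, from 192 to 260 normalized counts in PBS and 174 to 215 in frHMGB1 to 305 to 368 in dsHMGB1, 726 to 750 in LPS and 1169 to 1242 in LPS/IFNγ. Their part in the subunit levels was not tested. The members did not move together. *Zbtb46*, a marker of conventional dendritic cells, went from a mean of 14.2 in PBS to 514 in LPS/IFNγ, and *Xcr1* from 81.2 to 481. *Clec9a* went from 117 in PBS to 9.73 in dsHMGB1, 12.0 in LPS and 67.1 with LPS/IFNγ, and *Itgae* from 11.2 to 4.12, 4.99 and 0, while *Flt3*, which defines their precursors, had 0 counts in PBS, frHMGB1 and dsHMGB1 and no more than 4 in a group elsewhere. T and NK cell genes summed to at most 19.3 in any library with *Cd3e*, *Cd3d*, *Cd3g*, *Cd8a* and *Ncr1* at 0 in all 15, B cell genes to at most 17.6 and neutrophil genes to at most 42.7. Fibroblast genes summed to between 6306 and 11955 in PBS and between 16159 and 16278 in LPS/IFNγ, and mast cell genes to between 122 and 349 over all libraries, and their part in the results was not tested. In CPM the fibroblast sums overlapped, at 118 to 282 in PBS and 220 to 223 in LPS/IFNγ.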

How the data were processed

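RNA was sequenced from 15 libraries of BMDMs. According to the study's methods, stranded mRNA libraries were read paired-end on a NextSeq, and the authors demultiplexed with CASAVA and aligned to GRCm38 with STAR. The deposited values are raw counts per gene, neither normalized nor filtered. The counting program is not given in the sources used here, nor are its annotation and strand setting. Symbols and coordinates were taken from GENCODE M21, which holds 51661 of the 51763 identifiers.

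Genes past edgeR's filterByExpr (16919) were tested with its quasi-likelihood F test (edgeR 4.0.16, TMM normalization, all 15 libraries in one fit, no covariates), and genes with a Benjamini-Hochberg adjusted p under 0.05 were called. Each adjusted p in the report is from this test unless named otherwise. Normalized counts, unshrunken log2 fold changes and SE came from DESeq2 1.42.0 in R 4.3.3. The study itself used DESeq2 but set its p-values aside, because the libraries were technical replicates. It called genes by the size of the log2 fold change alone, so the calls here follow another rule. The study also measured *Il12b*, among other genes, by qPCR in BMDMs of mice kept separate, and reports patterns similar to its sequencing. Folds are ratios of counts summed over a condition and divided by summed size factors. Exact permutation tests used SciPy 1.17.1. The edgeR script was tested on simulated counts.

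Members and lists were chosen with earlier results of these data known. The genes named are the members, those of the receptor, factor and T and NK partner lists, the markers, and the 3 genes most like each member. Alternatives were DESeq2's test, RLE normalization, no filter, at least 1 CPM in 3 libraries, protein-coding genes only, 2 conditions fitted alone, a replicate block, each library left out and, chosen after seeing the data, total counts as library sizes and the lists without PBS replicate 3. For ratios they were the longest transcript, summed counts and each library left out. Total counts of 40934540 to 80925478 set the precision of low values.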

Additional observations from a re-analysis of the deposited data

How the results depend on the processing

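Of the 16 counts of members called under 23 alternatives, 364 of 368 values were within 1.5 times the reported count. The exceptions were in dsHMGB1 against LPS/IFNγ, where 2 members were called higher in place of 1 with the 2 conditions fitted alone, with total counts as library sizes and without PBS replicate 3 (1 to 2 over the libraries left out), and in LPS/IFNγ against LPS, where 2 were called higher with the conditions fitted alone. Of 917 fold changes, 901 kept their direction and side of the threshold. The calls lost or gained were those of *Il12b* in dsHMGB1 against LPS, *Ebi3* in dsHMGB1 against LPS/IFNγ and *Il27* in LPS/IFNγ against LPS described above, and the cause was not tested. Those that changed sign were uncalled differences of frHMGB1 from PBS. For *Ebi3* the log2 fold change was -0.023 with no filter, -0.0062 with at least 1 CPM in 3 libraries and -0.044 with protein-coding genes only, and -0.049 to 0.198 over the libraries left out. For *Il12b* it was -3.54 to 4.20 over the libraries left out, with 5 counts in PBS and 6 in frHMGB1 behind it. With total counts as library sizes the median log2 fold change of all tested genes moved by -0.35, -0.62 and -0.66 for dsHMGB1, LPS and LPS/IFNγ against PBS, by -0.38 for dsHMGB1 against frHMGB1, and by 0.28 and 0.31 for dsHMGB1 against LPS and LPS/IFNγ, while RLE moved it by at most 0.06 in size. Called directions of the members held under all 3 scalings.

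With the longest transcript as gene length, the mean log2 ratio of *Il12b* to *Il12a* was 4.35 in dsHMGB1, 2.40 in LPS and 4.43 with LPS/IFNγ, that of *Il12b* to *Il23a* was 4.14 in LPS and 11.91 in LPS/IFNγ, and that of *Il12a* to *Ebi3* was -2.28 in dsHMGB1, -0.10 in LPS and 0.51 with LPS/IFNγ. The other 77 of 85 ratio values stayed within the spread between libraries.

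Replicate numbers did not pair the samples: libraries of the same number in different conditions had correlations of their deviations from -0.386 to 0.375, and 6 of 15 libraries were most like one of their own number. A replicate block changed no call, with 5 members called higher in dsHMGB1, LPS and LPS/IFNγ against PBS as before. Without PBS replicate 3 the calls of the receptor and factor lists against PBS changed as given in the report, most in frHMGB1, and those of the T and NK partners did not change. The lowest levels are limited by depth: *Il12a*, *Il23a* and *Il12b* had from 0 to 6 counts over a condition in PBS and frHMGB1.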

Other observations

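Of 4 genes tied to the T and NK cell side of the IL-12 axis, 3 were tested. *Il18*, a cytokine that acts with IL-12 on T and NK cells, had 218 ± 65.6 normalized counts in PBS and 190 ± 9.80 in frHMGB1, against 1131 ± 161 in dsHMGB1, 1833 ± 180 in LPS and 1200 ± 66.5 with LPS/IFNγ (SD, n = 3). It was called higher than in PBS in the last 3 conditions, and lower in LPS/IFNγ than in LPS by 0.61 ± 0.18 on the log2 scale (SE, adjusted p = 0.0179, edgeR). *Il15*, which sustains NK cells, had 778 ± 238 in PBS, 19964 ± 2515 in dsHMGB1, 42866 ± 1789 in LPS and 31397 ± 921 with LPS/IFNγ, and was called higher than in PBS in all 3. *Tbx21*, the gene of the type 1 factor T-bet, had 0 counts in all dsHMGB1 and LPS libraries and 124 ± 20.2 normalized counts in LPS/IFNγ, against 0.782 ± 1.35 in PBS. *Ifng* was too low to test, with a highest mean of 2.47 ± 4.28 in LPS/IFNγ. In this list, 2 of 3 tested genes were higher than in PBS in dsHMGB1, 2 in LPS and 3 with LPS/IFNγ, and none was lower. Among all tested genes the shares were 23.3%, 26.7% and 29.0% higher and 24.2%, 36.2% and 31.2% lower.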
